A study of Mus musculus with 18 samples.

Results

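The 9 genes described here encode receptors that steer blood cells between tissues: the chemokine receptors Cxcr4, Ccr7, Cxcr5, Ccr9, Ccr2, Cxcr3 and Cxcr6, and the sphingosine-1-phosphate receptors S1pr1 and S1pr4. They were chosen by name, and all 9 were found among the 24072 genes of the RNA table. Of the 14377 regions with an accessibility value, 23 carried one of these gene names in the authors' annotation. Cxcr4 had 10 of them, Cxcr5 4, Ccr2 3, S1pr1 3, Ccr9 2 and Ccr7 1, and Cxcr3, Cxcr6 and S1pr4 had none.

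Chemokine receptors couple mostly to inhibitory G proteins and turn a gradient of chemokine into directed movement. CXCR4 binds CXCL12 and holds B cell progenitors next to stromal cells in fetal liver and bone marrow, while CCR9 and CCR7 help progenitors to enter the thymus. Sphingosine-1-phosphate receptors guide exit into blood and lymph.

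The cells were pro-B cells grown from C57BL6/J fetal liver, of 3 genotypes: wild type (WT), Ebf1 knock out (Ebf1-KO) and Pax5 knock out (Pax5-KO). EBF1 and PAX5 are transcription factors of the B lineage. Cultures of all genotypes were expanded on OP9 stroma in Opti-MEM with 10% serum and with KIT ligand, FLT3 ligand and IL-7 at 10 ng/ml each. RNA was sequenced in 9 libraries and open chromatin was measured in 9 more by ATAC-seq, in which a transposase inserts adapters where DNA is accessible, with 3 libraries per genotype and assay. The labels do not say that the libraries of a group came from separate fetuses or cultures, and p-values here take in just the library-to-library spread, which may be technical. In whole cultures, fewer cells of a type and less RNA per cell cannot be told apart. Xist and Ddx3y, transcripts that mark sex, set the Ebf1-KO RNA libraries apart, with values given beside Cxcr3 below. Sex and genotype thus cannot be told apart in any RNA comparison with Ebf1-KO.

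RNA libraries held 27.3 to 89.1 M mapped reads, and ATAC libraries 15.3 to 38.6 M tags. RNA levels are reads in exons per 10 M mapped reads, and values after ± beside a level are the SD over 3 libraries. Tests used log2(value + 1), a scale that shrinks the fold change of weakly expressed genes. The median log2 fold change over all genes tested was 0.31 (Ebf1-KO over WT), 0.28 (Pax5-KO over WT) and 0.05 (Ebf1-KO over Pax5-KO), and RNA changes are given after subtracting it, with the SE after ±. Each adjusted p tests the change before that subtraction, and a feature is said to be called where limma's adjusted p was under 0.05. The targeted genes, counted over whole transcripts, were Pax5 (WT 1521 ± 179, Ebf1-KO 13.1 ± 3.96, Pax5-KO 109 ± 17.5) and Ebf1 (WT 3969 ± 634, Ebf1-KO 1465 ± 131, Pax5-KO 1515 ± 169.9), and the mean Ebf1 levels of both knockouts differed by less than their SD. The 9 B lineage markers summed per library to WT 38462 to 47703, Ebf1-KO 1390.2 to 1652, Pax5-KO 12952 to 19822, and without Ebf1 itself to WT 35209.7 to 43248, Ebf1-KO 39.6 to 47.2, Pax5-KO 11623 to 18161. Of 8 hepatocyte markers Alb, Apoa1, Fgb, Serpina1a and Ttr were at 0 in all libraries, and the 11 stromal markers summed to WT 166 to 346, Ebf1-KO 411 to 489, Pax5-KO 105 to 253, or without Pdgfrb to WT 166 to 345, Ebf1-KO 41 to 129, Pax5-KO 75.2 to 229.8.

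For 3 genes the assigned peak with the highest mean accessibility in any genotype is printed from GRCm38 (mm10). In the results that follow, accessibility at the S1pr1 and Cxcr4 peaks was lower in both knockouts, and at the Ccr9 peak it was higher in Ebf1-KO. The S1pr1 peak (chr3:115702138-115702386, + strand) and the Ccr9 peak (chr9:123754452-123754700, + strand) were bound by PAX5 only in the binding data the authors used, and the Cxcr4 peak (chr1:128608027-128608297, + strand) by both factors. All 3 are intergenic, and their centres lie at 12.8, −12.6 and −15.9 kb from the start site of their gene, minus meaning upstream. Capitals mark CANNTG, the E-box, and TGTGGT on either strand, the core letters of RUNX sites.
S1pr1: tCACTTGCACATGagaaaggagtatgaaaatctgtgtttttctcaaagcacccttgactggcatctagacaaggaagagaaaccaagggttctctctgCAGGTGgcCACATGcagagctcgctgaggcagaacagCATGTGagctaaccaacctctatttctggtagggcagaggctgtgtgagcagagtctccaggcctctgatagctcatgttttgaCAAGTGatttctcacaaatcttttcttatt
Ccr9: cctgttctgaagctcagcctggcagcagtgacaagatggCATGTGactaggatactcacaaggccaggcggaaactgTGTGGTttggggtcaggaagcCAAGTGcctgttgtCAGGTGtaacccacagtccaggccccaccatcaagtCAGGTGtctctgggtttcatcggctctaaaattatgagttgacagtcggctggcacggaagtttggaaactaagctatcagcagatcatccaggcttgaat
Cxcr4: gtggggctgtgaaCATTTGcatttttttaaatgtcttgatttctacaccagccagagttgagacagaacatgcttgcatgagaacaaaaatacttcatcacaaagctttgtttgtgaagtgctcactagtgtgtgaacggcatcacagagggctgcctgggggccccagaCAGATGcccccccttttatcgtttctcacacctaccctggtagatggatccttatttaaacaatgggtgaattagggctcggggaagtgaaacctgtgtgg
The S1pr1 peak holds 6 E-boxes, the Ccr9 peak 4 E-boxes and 1 RUNX match, and the Cxcr4 peak 2 E-boxes. CCCNNGGG, the core of the EBF1 palindrome, and GCNTGAC, part of the PAX5 site, occur on neither strand of them.

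Receptor RNA moved in both directions. Of the 9 genes, 8 differed between Ebf1-KO and WT, 5 higher and 3 lower, where 55.3% of the 12839 genes tested were called (40.8% higher, 14.4% lower). Groups did not overlap for 9 of 9, as for 64.4% of all genes. Pax5-KO against WT had 8 called, 4 higher and 4 lower, against 46.5% of all genes (34.7% higher, 11.9% lower), with 8 not overlapping, against 54%. Between the knockouts 6 were called, 3 higher and 3 lower in Ebf1-KO, against 30.9% (17.5% higher, 13.3% lower), with 7 not overlapping, against 41.5%. Before subtraction the median log2 fold changes of the 9 were 0.86, 0.32 and 0.52. All 9 passed the filter on low counts. Cxcr3 and Ccr2 passed it only with knockout libraries, so that their calls against WT could only be rises. Both comparisons with WT share the same WT libraries. These counts come from the fit without a block for the replicate number. With that block, 9, 8 and 7 of the 9 were called in the 3 comparisons, against 8783, 8073 and 5622 of all 12839 genes. The calls added were S1pr1 in Ebf1-KO over WT and Ccr7 between the knockouts.

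The share of rises depends on scaling. With TMM, which sets library scales from the bulk of genes, the calls over all genes went from 5240 higher and 1855 lower to 3852 higher and 3608 lower in Ebf1-KO, and from 4451 higher and 1525 lower to 3324 higher and 3067 lower in Pax5-KO. For the 9 receptors it gave 4 higher and 4 lower in Ebf1-KO, with Cxcr6 lost and S1pr1 gained, 4 higher and 4 lower in Pax5-KO, and 3 higher and 3 lower between the knockouts.

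**Figure D1:**
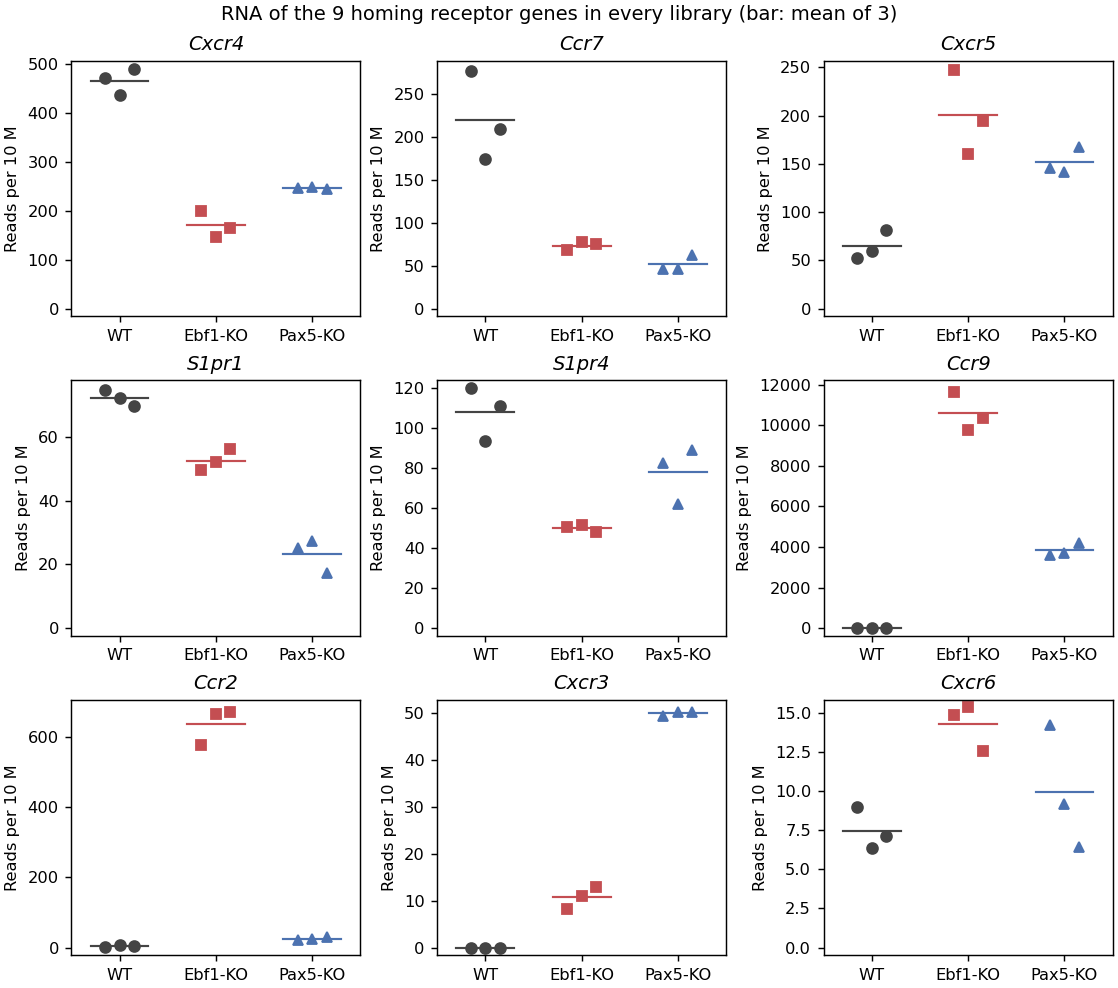
RNA of the 9 receptor genes (reads per 10 M mapped reads) in each of the 9 libraries, by genotype, with the mean of 3. Cxcr4, Ccr7, S1pr1 and S1pr4 are highest in WT, Ccr9, Ccr2 and Cxcr5 lie above WT in both knockouts, and Cxcr3 is at 0 in WT.

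Levels of different genes were compared per kb of transcript. In WT the order was Cxcr4 (257 ± 14.9 reads per 10 M per kb), Ccr7 (112 ± 26.5), S1pr4 (45.2 ± 5.67), then Cxcr5 (24.8 ± 5.79) and S1pr1 (23.9 ± 0.868), whose libraries overlapped. Ccr9 (3.96 ± 0.741) and Cxcr6 (3.96 ± 0.715) overlapped as well, above Ccr2 (1.31 ± 1.10) and Cxcr3 at 0. Ccr9 came first in both knockouts, with 2415 ± 217 per kb in Ebf1-KO and 875 ± 71.7 in Pax5-KO. Ebf1-KO cells had Ccr2 next (178 ± 14.9), then the overlapping pair Cxcr4 (94.4 ± 15.1) and Cxcr5 (76.8 ± 16.7), then Ccr7 (37.3 ± 2.32), S1pr4 (20.9 ± 0.844) and S1pr1 (17.4 ± 1.12), and last the overlapping Cxcr6 (7.56 ± 0.787) and Cxcr3 (6.68 ± 1.47). Pax5-KO cells had Cxcr4 (136 ± 1.12) and Cxcr5 (58.2 ± 5.36) next. Neighbours overlapped among S1pr4 (32.5 ± 5.90), Cxcr3 (31.2 ± 0.281) and Ccr7 (26.2 ± 4.58), and again among S1pr1 (7.67 ± 1.73), Ccr2 (6.79 ± 1.28) and Cxcr6 (5.26 ± 2.10). Of the summed RNA of the 9 genes, without correction for length, Ccr9 made up 1.65 to 2.05% per WT library, 89.2 to 90.5% per Ebf1-KO library and 85.1 to 86.3% per Pax5-KO library. Without Ccr9 the sums were 849.6 to 1005, 1181 to 1238 and 609 to 667 reads per 10 M.

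Cxcr4, the CXCL12 receptor, fell in both knockouts. Cxcr4 (chr1:128588199-128592299, − strand, NM_009911) gave 471, 436 and 489 in the WT libraries, 200.5, 147 and 166 in the Ebf1-KO ones and 248, 249 and 245 in the Pax5-KO ones. The genotypes did not overlap, and WT was the highest. Ebf1-KO was 2.72-fold below WT (log2 fold change −1.76 ± 0.14, adjusted p = 4.32e-07), and Pax5-KO 1.88-fold (−1.19 ± 0.14, adjusted p = 9.16e-05). Ebf1-KO was also below Pax5-KO (−0.59 ± 0.14, adjusted p = 0.00825), a call lost without Ebf1-KO library 2 (adjusted p = 0.0562). Its ligand gene Cxcl12, expressed by stroma, passed no test (WT 12.8 ± 13.6, Ebf1-KO 4.78 ± 4.59, Pax5-KO 8.03 ± 9.62).

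Ccr7, the receptor for CCL19 and CCL21 that leads cells into lymph nodes, also fell in both. Ccr7 (chr11:99144199-99155077, − strand, NM_007719) gave 276, 174 and 209 in the WT libraries, 68.5, 77.3 and 74.8 in the Ebf1-KO ones and 46.7, 46.0 and 62.0 in the Pax5-KO ones. All WT libraries were above all knockout libraries, and the knockouts did not overlap. Ebf1-KO was 2.99-fold below WT (log2 fold change −1.85 ± 0.19, adjusted p = 6.14e-06), and Pax5-KO 4.26-fold (−2.34 ± 0.19, adjusted p = 3.63e-07). Between the knockouts the value was 0.47 ± 0.19 in the fit without a block. With the replicate number as a block it was called as higher in Ebf1-KO (adjusted p = 0.0132), which stands here. Without the block it was not called (adjusted p = 0.0556), except without WT library 1 (0.0321) or Pax5-KO library 3 (0.015).

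Cxcr5, the receptor for CXCL13 that takes mature B cells to follicles, rose in both knockouts. Cxcr5 (chr9:44511787-44526421, − strand, NM_007551) gave 53.0, 59.5 and 81.8 in the WT libraries, 247, 160.1 and 195 in the Ebf1-KO ones and 146, 142 and 168 in the Pax5-KO ones. Every knockout library was above every WT library, and the knockouts overlapped. Ebf1-KO was 3.10-fold above WT (log2 fold change 1.31 ± 0.20, adjusted p = 4.62e-06), and Pax5-KO 2.34-fold (0.96 ± 0.20, adjusted p = 0.000103). The difference between the knockouts, 0.33 ± 0.20, was not called (adjusted p = 0.175).

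S1pr1, by which lymphocytes follow sphingosine-1-phosphate out of tissues, fell in Pax5-KO and, with the replicate number as a block, in Ebf1-KO. S1pr1 (chr3:115710433-115715055, − strand, NM_007901) gave 74.9, 72.2 and 69.6 in the WT libraries, 49.5, 52.0 and 56.2 in the Ebf1-KO ones and 25.1, 27.3 and 17.3 in the Pax5-KO ones. The genotypes did not overlap, with Pax5-KO lowest. Pax5-KO was 3.11-fold below WT (log2 fold change −1.90 ± 0.19, adjusted p = 5.85e-06), and Ebf1-KO was 2.27-fold above Pax5-KO (1.12 ± 0.19, adjusted p = 0.000187). Against WT, Ebf1-KO at −0.76 ± 0.19 was not called without the block (adjusted p = 0.0618). It was called as lower with the replicate number as a block (adjusted p = 0.0251), which stands here. Without the block it was also called as lower with TMM (0.00855), quantile normalization (0.00333), edgeR (0.00577) and DESeq2 (0.00139), with pseudocount 5 (0.0469), with only WT and Ebf1-KO in the fit (0.0259), and without Pax5-KO library 3 (0.021).

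S1pr4, a sphingosine-1-phosphate receptor of blood cells, fell in Ebf1-KO and, by a call that rests on single libraries, in Pax5-KO. S1pr4 (chr10:81497745-81500137, − strand, NM_010102) gave 120.0, 93.3 and 111 in the WT libraries, 50.6, 51.7 and 47.8 in the Ebf1-KO ones and 82.6, 61.8 and 88.7 in the Pax5-KO ones. No genotypes overlapped, and Ebf1-KO was lowest. Ebf1-KO was 2.16-fold below WT (log2 fold change −1.40 ± 0.18, adjusted p = 0.000109), and Pax5-KO 1.39-fold (−0.76 ± 0.18, adjusted p = 0.0412). The latter was lost with no filter on low counts (adjusted p = 0.0512), with only WT and Pax5-KO in the fit (0.0654), and without WT library 1 (adjusted p = 0.128), WT library 3 (0.0938), Pax5-KO library 2 (0.187), or Ebf1-KO library 1, 2 or 3 (0.0513, 0.0569 and 0.053). Ebf1-KO was below Pax5-KO (−0.66 ± 0.18, adjusted p = 0.017), which was lost without Ebf1-KO library 3 (0.0587) or Pax5-KO library 1 (0.0546).

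Ccr9, the CCL25 receptor of thymus-seeding progenitors and gut-homing lymphocytes, had the largest fitted log2 fold change of the 9 in both knockouts. Ccr9 (chr9:123767211-123783457, + strand, NM_001166625) gave 21, 14.8 and 16.3 in the WT libraries, 11636, 9772 and 10373 in the Ebf1-KO ones and 3611, 3709 and 4198 in the Pax5-KO ones. The genotypes were far apart, with Ebf1-KO on top. Ebf1-KO had 609 times the WT mean (log2 fold change 8.87 ± 0.15, adjusted p = 2.93e-15), and Pax5-KO 221 times (7.44 ± 0.15, adjusted p = 3.85e-14). Ebf1-KO was 2.76-fold above Pax5-KO (1.42 ± 0.15, adjusted p = 8.74e-07). Its ligand gene Ccl25 (WT 26.2 ± 3.44, Ebf1-KO 36.2 ± 5.83, Pax5-KO 24.1 ± 1.86) was higher in Ebf1-KO than in Pax5-KO (adjusted p = 0.0437), the only call among the 2 tested of 12 ligand genes.

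Ccr2, the CCL2 receptor of monocytes, rose in both knockouts and much more in Ebf1-KO. Ccr2 (chr9:124102183-124109140, + strand, NM_009915) gave 0.561, 8.45 and 5.08 in the WT libraries, 578, 667 and 674 in the Ebf1-KO ones and 20.2, 23.5 and 29.3 in the Pax5-KO ones. No genotypes overlapped. Ebf1-KO had 136 times the WT mean (log2 fold change 6.85 ± 0.45), Pax5-KO 5.18 times (2.21 ± 0.45), and Ebf1-KO 26.3 times the Pax5-KO mean (4.63 ± 0.45, adjusted p = 6.15e-07). WT library 1 held 2 reads of Ccr2, so both changes against WT rest on a level near the floor. As Ccr2 passed the filter on low counts only with knockout libraries, no p-value against WT is given.

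Cxcr3, the receptor for CXCL9, CXCL10 and CXCL11 on effector T and NK cells, was at 0 in WT and higher in Pax5-KO than in Ebf1-KO. Cxcr3 (chrX:101731535-101734147, − strand, NM_009910) gave 0 in each WT library, 8.25, 11.0 and 12.9 in the Ebf1-KO ones and 49.6, 50.4 and 50.3 in the Pax5-KO ones. The genotypes did not overlap, and the Pax5-KO libraries lay close together. Against a WT floor of 3 reads over the group (0.236 per 10 M), the level was at least 45.4-fold higher in Ebf1-KO and at least 212-fold higher in Pax5-KO. As Cxcr3 passed the filter on low counts only through the knockouts, only a rise over WT could be called, and no p-value against WT is given. Ebf1-KO was 4.67-fold below Pax5-KO (−2.19 ± 0.22, adjusted p = 1.35e-06). Cxcr3 is X-linked, and sex-linked transcripts set Ebf1-KO apart, namely Xist (WT 28.4 ± 11.5, Ebf1-KO 45559 ± 3926, Pax5-KO 19.8 ± 21) and Ddx3y (WT 692 ± 71.3, Ebf1-KO 1.46 ± 1.16, Pax5-KO 934 ± 194). In the Ebf1-KO libraries the sex that these transcripts mark and the genotype cannot be told apart.

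Cxcr6, the CXCL16 receptor of innate and memory lymphocytes, was low throughout. Cxcr6 (chr9:123806477-123811754, + strand, NM_030712) gave 8.97, 6.34 and 7.14 in the WT libraries, 14.8, 15.4 and 12.6 in the Ebf1-KO ones and 14.2, 9.19 and 6.40 in the Pax5-KO ones. Ebf1-KO lay above WT, and Pax5-KO overlapped with both other genotypes. Ebf1-KO was 1.91-fold above WT (log2 fold change 0.55 ± 0.27, adjusted p = 0.0131), a call lost with TMM (adjusted p = 0.153), quantile normalization (0.307), edgeR (0.192) and DESeq2 (0.203), and without WT library 2 (0.054). Pax5-KO against WT (0.04 ± 0.27, adjusted p = 0.343) and the knockouts against each other (0.49 ± 0.27, adjusted p = 0.151) were not called, the latter except without Pax5-KO library 1 (0.0292). The gene lies within Fyco1 on the opposite strand (WT 223 ± 3.21, Ebf1-KO 418 ± 7.95, Pax5-KO 344 ± 33.2), and as the sources used here do not state whether counting used strand, reads of both genes cannot be told apart.

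Markers of other blood cells moved with some of these rises, and their part in the result was not tested. The 10 myeloid markers summed per library to WT 8.45 to 16.5, Ebf1-KO 814 to 1061, Pax5-KO 77.0 to 110.3, led in Ebf1-KO by Adgre1, Itgam and Mpo. Ctsg, S100a8 and S100a9 were at 0 in all genotypes, and Elane in WT. The 8 NK and innate lymphoid markers summed to WT 0.841 to 1.41, Ebf1-KO 957 to 1086, Pax5-KO 48.4 to 87.6, led in Ebf1-KO by Il2rb, Gzma and Nkg7, with Ncr1 and Tbx21 at 0 in WT and Pax5-KO. The 6 T cell markers summed to WT 2.11 to 4.49, Ebf1-KO 18.7 to 30, Pax5-KO 3.42 to 4.44, with Cd3g at 0 in WT and Cd3e in Pax5-KO. The 6 dendritic markers, Ccr7 among them, summed to WT 174 to 277, Ebf1-KO 151 to 183, Pax5-KO 129 to 145, with Cd209a, Clec9a and Itgax at 0 in WT and Cd209a in Pax5-KO. Without Ccr7 the sums were WT 0 to 0.476, Ebf1-KO 82.8 to 108, Pax5-KO 82.7 to 96.8.

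**Figure D2:**
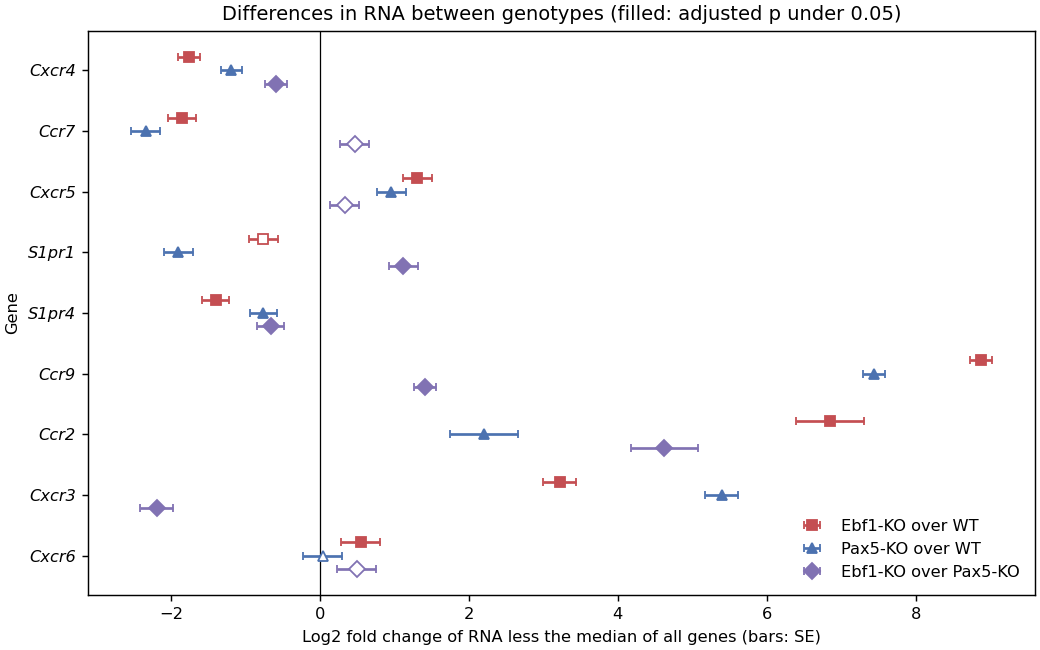
Log2 fold change of RNA less the median of all genes, with the SE, for the 9 receptor genes in the 3 comparisons, filled where the adjusted p was under 0.05 in the fit without the replicate block. Ccr9, Ccr2 and Cxcr3 rise farthest above 0 in the knockouts over WT, and Cxcr4, Ccr7 and S1pr4 lie below 0 in both.

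In the authors' deposited tables of changed transcripts for Ebf1-KO over WT, log2 fold changes were 8.95 for Ccr9, 8.36 for Cxcr3, 6.84 for Ccr2, 1.33 for Cxcr5, −1.44 for S1pr4, −1.76 for Cxcr4 and −1.92 for Ccr7. For Pax5-KO over WT the authors' deposited tables give 10.8 for Cxcr3, 7.54 for Ccr9, 2.17 for Ccr2, −1.17 for Cxcr4, −1.91 for S1pr1 and −2.38 for Ccr7.

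Ccr9, Cxcr6 and Ccr2 lie in a chemokine receptor cluster on chromosome 9, where 16 genes of the table fell within 250 kb of them. Of 12 tested, the 3 receptors included, 10 were higher in Ebf1-KO than in WT (of all genes 40.8%) and 5 in Pax5-KO (of all genes 34.7%), with none lower. With TMM the counts were 7 higher and 1 lower in Ebf1-KO and 4 higher and 0 lower in Pax5-KO, and the calls of Xcr1 and 2010315B03Rik in Ebf1-KO and of Sacm1l in Pax5-KO were lost. Lztfl1, next to Ccr9 and known for ciliary trafficking, rose in both (WT 203 ± 18.7, Ebf1-KO 2475 ± 574, Pax5-KO 956 ± 9.94). Ccr1, a receptor of myeloid cells, was highest in Ebf1-KO (WT 0, Ebf1-KO 6.41 ± 1.11, Pax5-KO 0.132 ± 0.144). It passed the filter on low counts only through Ebf1-KO, so no p-value is given. Limd1, at the other end of the region, was not called with the authors' scaling (WT 697 ± 84.1, Ebf1-KO 625 ± 81.0, Pax5-KO 800.3 ± 162), and was called lower in Ebf1-KO with TMM (adjusted p = 0.000206), quantile normalization (0.000784), edgeR (0.000255) and DESeq2 (5.51e-07).

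**Figure D3:**
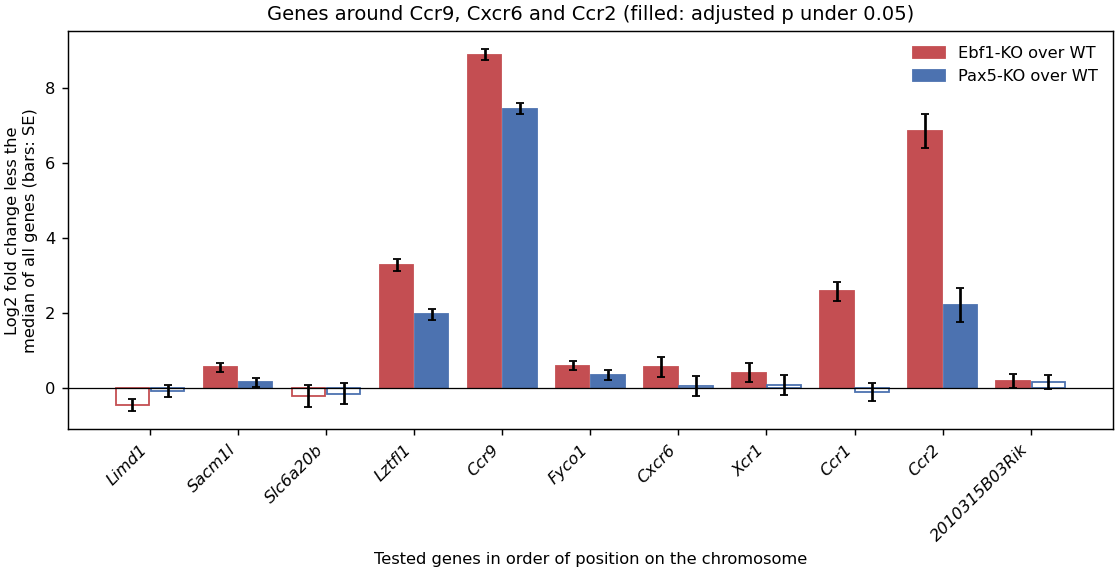
Log2 fold change of RNA less the median of all genes, with the SE, for 11 of the 12 tested genes around Ccr9, Cxcr6 and Ccr2 in order of position. Ccr9 and Lztfl1 stand above 0 in both knockouts, Ccr2 stands higher in Ebf1-KO, and Ccr1 is above 0 in Ebf1-KO.

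Of 11 other chemokine receptors 7 were tested, and 7 were higher in Ebf1-KO and 3 in Pax5-KO, with none lower, where over all genes 40.8% and 34.7% were higher (Xcr1 lost with TMM, adjusted p = 0.242). Their median lay 2.63 and 0.10 above that of all genes on the log2 scale. Ccr6, the CCL20 receptor (WT 0, Ebf1-KO 14.3 ± 3.30, Pax5-KO 32.3 ± 3.78), and Cx3cr1, the fractalkine receptor (WT 0, Ebf1-KO 7.14 ± 2.5, Pax5-KO 21.1 ± 4.97), were, like Cxcr3, at 0 in WT and lower in Ebf1-KO than in Pax5-KO (adjusted p = 0.00113 and 0.000521). Ccr4, a T cell receptor for CCL17 and CCL22, rose in both (WT 0.821 ± 0.459, Ebf1-KO 12.7 ± 1.43, Pax5-KO 5.27 ± 1.61). Calls of Ccr6, Cx3cr1 and Ccr4 against WT could only be rises, as they passed the filter on low counts only through the knockouts. Of 6 atypical and chemokine-like receptors 3 were tested and 2 were higher in each knockout. These were Cmklr1 (WT 0, Ebf1-KO 8.96 ± 1.45, Pax5-KO 2.00 ± 1.19) and Ccrl2 (WT 0.446 ± 0.388, Ebf1-KO 3.28 ± 1.29, Pax5-KO 6.10 ± 2.13). The Ccrl2 call in Ebf1-KO was lost with quantile normalization (adjusted p = 0.0562). Cmklr1 and Ccrl2 passed the filter on low counts only through the knockouts, so that their calls against WT could only be rises.

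Of 4 other sphingosine and oxysterol receptors 3 were tested. S1pr3 (WT 4.38 ± 1.91, Ebf1-KO 98.2 ± 19.5, Pax5-KO 53.0 ± 11.0) and S1pr2 (WT 5.19 ± 0.609, Ebf1-KO 20.4 ± 3.99, Pax5-KO 13.9 ± 4.15) rose in both knockouts, where S1pr4 fell. Gpr183, an oxysterol receptor that positions B cells, fell in Pax5-KO (WT 37.9 ± 7.88, Ebf1-KO 28.8 ± 10.6, Pax5-KO 21.2 ± 8.24, adjusted p = 0.0375). Of 9 tested enzymes and exporters of the lipid, of 12, 4 were higher and 3 lower in Ebf1-KO, and 4 higher and 2 lower in Pax5-KO (with TMM 3 higher and 3 lower). Their median, less that of all genes, was −0.56 and −0.19. Of all genes tested 40.8% were higher and 14.4% lower in Ebf1-KO, and 34.7% higher and 11.9% lower in Pax5-KO. Spns2, an exporter of the lipid, rose in both (WT 3.60 ± 1.62, Ebf1-KO 73.5 ± 8.61, Pax5-KO 47.6 ± 8.15), as did the phosphatase gene Plpp1 (WT 42.3 ± 5.03, Ebf1-KO 86.1 ± 19.0, Pax5-KO 81.4 ± 19.3). Spns2 passed the filter on low counts only with knockout libraries, so that its calls against WT could only be rises. Asah2, a ceramidase, fell in both (WT 55.0 ± 2.59, Ebf1-KO 0.444 ± 0.218, Pax5-KO 29.2 ± 2.63), as did Sgpp1, a phosphatase of the lipid (WT 76.6 ± 27.5, Ebf1-KO 31.9 ± 7.10, Pax5-KO 25.0 ± 2.31). Sgpl1, the lyase that degrades it, was lower in Ebf1-KO than in Pax5-KO (WT 247 ± 29.7, Ebf1-KO 114 ± 12.3, Pax5-KO 231 ± 17.9, adjusted p = 6.42e-05).

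All 21 listed G proteins and migration effectors were tested, with 10 higher and 2 lower in Ebf1-KO and 10 higher and 0 lower in Pax5-KO, and with TMM 7 higher and 4 lower and 8 higher and 4 lower. Of all genes tested 40.8% were higher and 14.4% lower (Ebf1-KO), or 34.7% higher and 11.9% lower (Pax5-KO). Less the median of all genes, theirs was 0.06 (Ebf1-KO) and 0.01 (Pax5-KO). Pik3cg, a phosphoinositide 3-kinase activated by these receptors (WT 508 ± 127, Ebf1-KO 1721 ± 166, Pax5-KO 1162 ± 175), and Gna12 (WT 82.0 ± 7.68, Ebf1-KO 183 ± 24.9, Pax5-KO 169 ± 41.9) and Plcb3 (WT 70.2 ± 21.2, Ebf1-KO 136 ± 14.8, Pax5-KO 142 ± 23.8), which carry receptor signals, rose in both. Tln1, which activates integrins, rose as well (WT 882 ± 103, Ebf1-KO 2058 ± 143, Pax5-KO 1611 ± 225). Gng2, a G protein subunit, was higher in Ebf1-KO than in Pax5-KO (WT 273 ± 33.3, Ebf1-KO 609 ± 97.5, Pax5-KO 217 ± 26.7), and Plcb2 (WT 213 ± 11.4, Ebf1-KO 155 ± 18.3, Pax5-KO 385 ± 33.4) and Pik3r5 (WT 324 ± 38.3, Ebf1-KO 225 ± 34.3, Pax5-KO 495 ± 105) were lower.

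Among genes that dampen receptor signals, 14 of 16 were tested, with 9 higher and 3 lower in Ebf1-KO and 8 higher and 4 lower in Pax5-KO (median less that of all genes 1.14 and 0.87). TMM gave 8 higher and 4 lower in each knockout. Of all genes tested 40.8% were higher and 14.4% lower in Ebf1-KO, and 34.7% higher and 11.9% lower in Pax5-KO. Adrbk2, a receptor kinase, rose chiefly in Ebf1-KO (WT 0.0933 ± 0.162, Ebf1-KO 179 ± 16.0, Pax5-KO 2.79 ± 1.53). RGS proteins shorten G protein signals, and Rgs1 (WT 0.199 ± 0.173, Ebf1-KO 90.4 ± 40.6, Pax5-KO 22.5 ± 3.07), Rgs3 (WT 0.885 ± 0.356, Ebf1-KO 69.7 ± 20.3, Pax5-KO 61.1 ± 10.7), Rgs10 (WT 0.393 ± 0.359, Ebf1-KO 32.6 ± 6.54, Pax5-KO 3.22 ± 0.239) and Rgs18 (WT 20.6 ± 10.6, Ebf1-KO 462 ± 42.9, Pax5-KO 117 ± 25.5) rose in both. Adrbk2, Rgs1, Rgs3 and Rgs10 passed the filter on low counts only through the knockouts, so that their calls against WT could only be rises. Of 11 tested regulators of homing receptor genes, of 12, 5 were higher and 4 lower in Ebf1-KO and 5 higher and 5 lower in Pax5-KO (median −0.25 and −0.28), beside the same shares of all genes. With TMM 5 were higher and 5 lower in Ebf1-KO, and 4 higher and 6 lower in Pax5-KO. Foxo1, a regulator of Ccr7 and S1pr1 in lymphocytes, fell in both (WT 2298 ± 625, Ebf1-KO 33.5 ± 1.28, Pax5-KO 659 ± 124), and so did Zeb2 (WT 2285 ± 346, Ebf1-KO 605 ± 31.6, Pax5-KO 474 ± 55.1) and Bach2 (WT 3079.9 ± 241, Ebf1-KO 735 ± 151, Pax5-KO 705 ± 51.2). Id2, an inhibitor of E proteins, rose in both (WT 6.21 ± 0.871, Ebf1-KO 284 ± 70.8, Pax5-KO 38.9 ± 17.0). Eomes (WT 0.0530 ± 0.0918, Ebf1-KO 66.4 ± 25.4, Pax5-KO 0.954 ± 0.572) and Gata3 (WT 0.305 ± 0.318, Ebf1-KO 65.6 ± 2.79, Pax5-KO 1.58 ± 0.441), factors of NK and T cells, were highest in Ebf1-KO. Both passed the filter on low counts only through Ebf1-KO, so that Ebf1-KO could only be called higher, and no p-value is given.

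As a description with no test, similarity of profile over the 9 RNA libraries was measured as the root mean square difference of centred log2 values. Ccr9 was nearest to Atp8b4 (0.18) and Il18rap (0.26), Ccr2 to Slc22a3 (0.47) and Faah (0.52), and Cxcr3 to Cdk18 (0.19) and Rasgrf2 (0.26). Cxcr4 was nearest to Gpcpd1 (0.11) and Lancl2 (0.12), Ccr7 to Cdc25b (0.16) and Slc1a5 (0.17), and Cxcr5 to Per1 (0.13) and Lrsam1 (0.15). S1pr1 was nearest to 3632454L22Rik (0.19) and Kif7 (0.19), S1pr4 to Grap (0.13) and Gm14420 (0.15), and Cxcr6 to Gm16023 (0.15) and Gapdhs (0.19).

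Accessibility was available at sites bound by EBF1, PAX5 or both, as tags per 10 M at each peak. Of the 23 receptor peaks 13 were lower and 1 higher in Ebf1-KO than in WT, where 54.4% of 14365 tested peaks were called (51.1% lower, 3.28% higher), and 13 did not overlap, against 59.2%. In Pax5-KO 15 were lower and 1 higher, against 53.7% (51.5% lower, 2.11% higher), and 18 did not overlap, against 57.3%. Between the knockouts 4 were called, 3 of them higher in Ebf1-KO, against 21.7% (9.06% higher, 12.6% lower), and 6 did not overlap, against 35.9%. Median log2 fold changes of the 23 were −1.11, −0.90 and 0.25, beside −0.78, −0.75 and −0.02 over all peaks. Accessibility changes below are as fitted, with no median subtracted.

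Lower accessibility was common over all bound sites. The table's peaks held 1.52 to 2.31% of the tags of WT libraries, 0.930 to 1.11% for Ebf1-KO and 0.825 to 1.02% for Pax5-KO. TMM scaling changed the calls over all peaks from 471 higher and 7346 lower to 2915 higher and 4269 lower in Ebf1-KO, and from 303 higher and 7405 lower to 1971 higher and 3050 lower in Pax5-KO. Among the receptor peaks it called 5 higher and 8 lower in Ebf1-KO and 2 higher and 7 lower in Pax5-KO. Under the authors' scaling, TMM, quantile normalization, edgeR and DESeq2 alike, 1 higher and 6 lower peaks were called in Ebf1-KO and 1 higher and 7 lower in Pax5-KO.

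**Figure D4:**
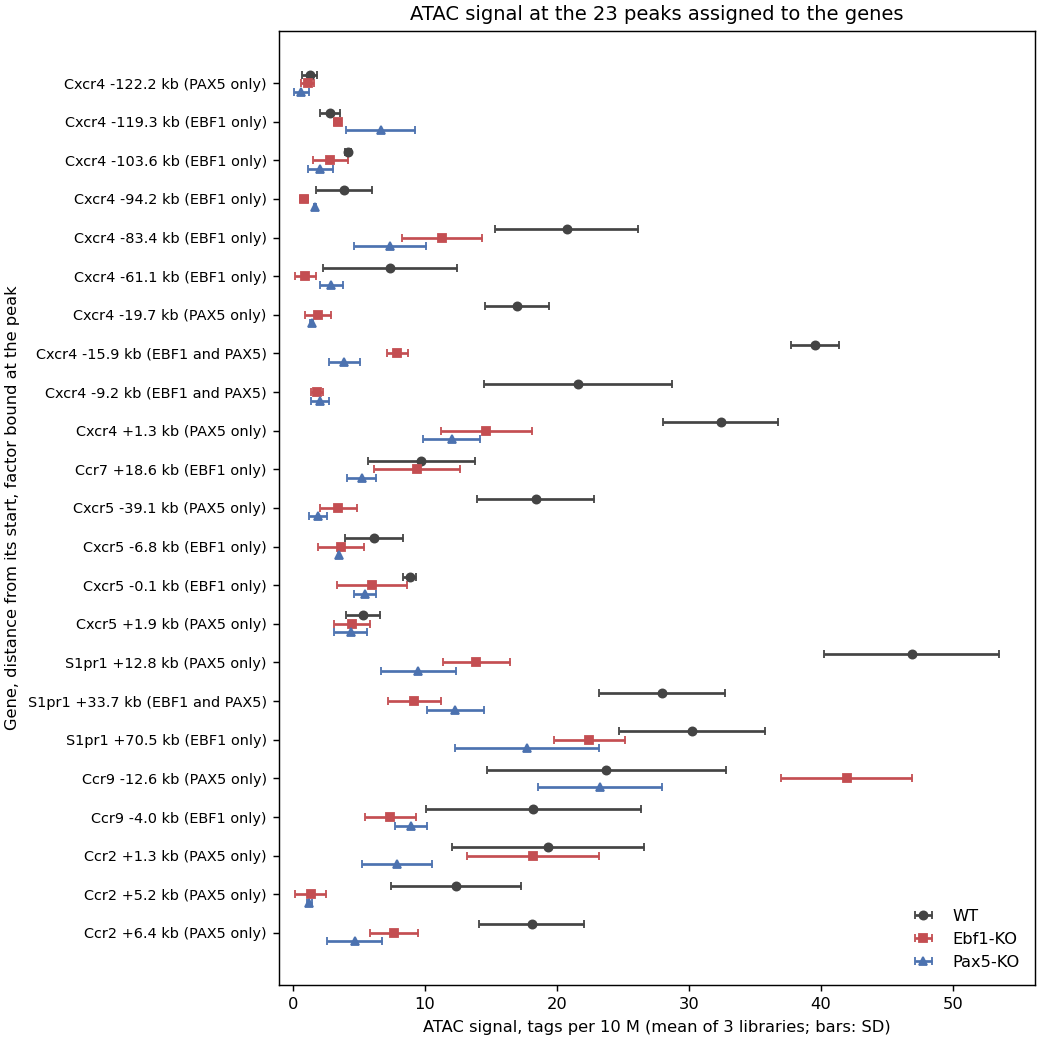
Accessibility (tags per 10 M, mean of 3 libraries with the SD) at the 23 peaks, named by gene, distance from the start site and the factor bound. WT exceeds both knockouts at most peaks of Cxcr4 and S1pr1, and Ebf1-KO is highest at the Ccr9 peak at −12.6 kb.

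Only 30 of the 7798 genes with a peak (0.385%) had 10 or more, as Cxcr4 did, and the median gene had 1. The printed Cxcr4 peak at −15.9 kb gave 39.9, 37.6 and 41.2 in the WT libraries, 7.01, 8.47 and 8.32 in the Ebf1-KO ones and 5.29, 3.45 and 3.04 in the Pax5-KO ones. No genotypes overlapped, and the WT libraries were close together. Ebf1-KO was 4.98-fold below WT (log2 fold change −2.19 ± 0.27, adjusted p = 2.83e-11), and Pax5-KO 10.1-fold (−3.07 ± 0.27, adjusted p = 3.39e-17). Ebf1-KO exceeded Pax5-KO there (0.88 ± 0.27, adjusted p = 0.0115), a call lost without Ebf1-KO library 2 (0.0547) or Pax5-KO library 2 or 3 (0.0586 and 0.0723).

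A second Cxcr4 peak bound by both factors, at −9.2 kb, gave 21.6, 14.5 and 28.7 in the WT libraries, 2.34, 1.51 and 1.60 in the Ebf1-KO ones and 2.82, 1.59 and 1.74 in the Pax5-KO ones. WT was above both knockouts, which overlapped (log2 fold change −2.97 ± 0.33 in Ebf1-KO and −2.86 ± 0.33 in Pax5-KO, adjusted p = 3.95e-13 and 2.89e-12). The PAX5-bound peak at −19.7 kb gave 14.4, 17.4 and 19.2 in the WT libraries, 0.780, 2.72 and 2.24 in the Ebf1-KO ones and 1.41, 1.59 and 1.30 in the Pax5-KO ones. It showed the same order (−2.68 ± 0.34 and −2.88 ± 0.34, adjusted p = 7.53e-11 and 1.02e-11). These 3 peaks were lower in both knockouts under each of the 5 scalings. The PAX5-bound peak in intron 1, at 1.3 kb (WT 32.4 ± 4.38, Ebf1-KO 14.7 ± 3.45, Pax5-KO 12.0 ± 2.16), was called in both (−1.11 ± 0.26 and −1.36 ± 0.26, adjusted p = 0.00018 and 6.67e-06) and in neither with the 4 other scalings.

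The other 6 Cxcr4 peaks lay from −61.1 to −122.2 kb, the farthest bound by PAX5 only and the rest by EBF1 only. That at −83.4 kb was the strongest of them (WT 20.8 ± 5.40, Ebf1-KO 11.3 ± 3.02, Pax5-KO 7.39 ± 2.73) and fell in both (adjusted p = 0.00973 in Ebf1-KO, whose libraries overlapped with WT, and 1.39e-05 in Pax5-KO), with both calls lost under the other scalings, and that in Ebf1-KO also without WT library 3 (0.0589) or Ebf1-KO library 1 (0.0681). At −61.1 kb (WT 7.40 ± 5.07, Ebf1-KO 0.973 ± 0.768, Pax5-KO 2.92 ± 0.855) Ebf1-KO was below WT (−1.94 ± 0.39, adjusted p = 9.81e-06, lost with quantile normalization) and below Pax5-KO (−1.04 ± 0.39, adjusted p = 0.0415). The latter call was lost with quantile normalization, DESeq2 and pseudocount 5 (0.132), without Ebf1-KO library 1 or 3 (0.094 and 0.224) or Pax5-KO library 1, 2 or 3 (0.0526, 0.0576 and 0.152). Its fall in Pax5-KO (adjusted p = 0.0427), where libraries overlapped with WT, was lost with the 4 other scalings, with pseudocount 0.5 (0.0836), without WT library 1 or 3 (0.399 and 0.138) and without Pax5-KO library 1 or 2 (0.102 and 0.119). The peak at −119.3 kb was higher in Pax5-KO (WT 2.82 ± 0.754, Ebf1-KO 3.42 ± 0.268, Pax5-KO 6.66 ± 2.64, 0.96 ± 0.34, adjusted p = 0.0139), under all 5 scalings, a call lost without WT library 1 (0.0671) or Pax5-KO library 1 or 2 (0.114 and 0.0528). At −94.2 kb only Ebf1-KO was called (adjusted p = 0.00299, 0.0596 without WT library 3, and lost with the 4 other scalings), and Pax5-KO was called without WT library 2 (0.0179) and with pseudocount 5 (0.0358). In Ebf1-KO the peak at −119.3 kb was called higher with TMM, quantile normalization and edgeR, and the peaks at −103.6 and −122.2 kb were not called. That at −103.6 kb was called in Pax5-KO without Pax5-KO library 2 (adjusted p = 0.0365).

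**Figure D5:**
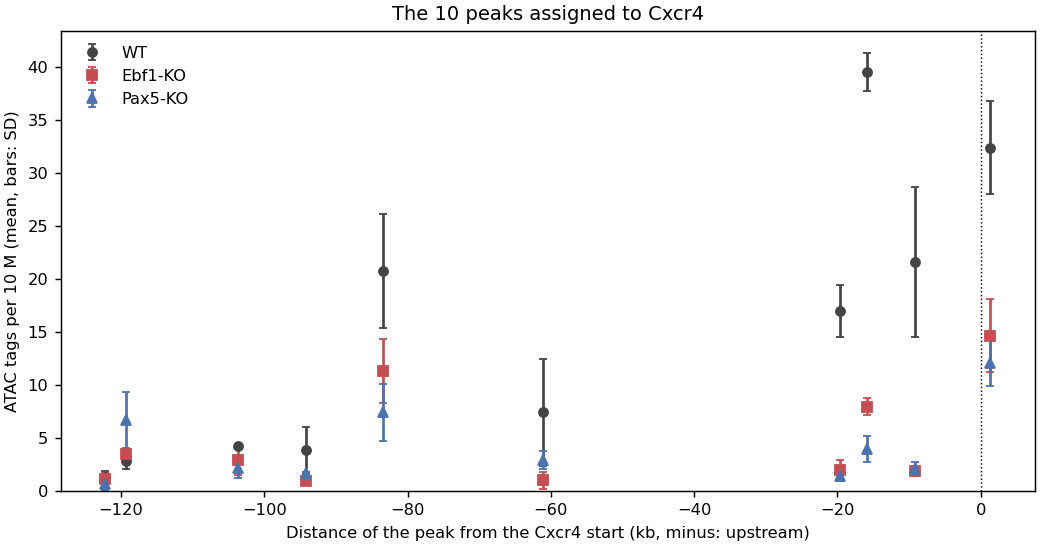
Accessibility at the 10 Cxcr4 peaks (tags per 10 M, mean of 3 libraries with the SD) against distance from the start site in kb, minus being upstream. WT stands above both knockouts from −19.7 to 1.3 kb and is highest at −15.9 kb.

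S1pr1 had 3 peaks, all downstream of its start. The printed peak at 12.8 kb gave 51.6, 39.3 and 49.7 in the WT libraries, 11.3, 16.3 and 14.1 in the Ebf1-KO ones and 12.7, 7.16 and 8.69 in the Pax5-KO ones. It was the most accessible of the 23 in WT, and WT was above both knockouts, which overlapped. Ebf1-KO was 3.37-fold below WT (log2 fold change −1.69 ± 0.26, adjusted p = 3.62e-08), and Pax5-KO 4.93-fold (−2.21 ± 0.26, adjusted p = 1.04e-11), both under all 5 scalings. The peak at 33.7 kb, bound by both factors (WT 28.0 ± 4.75, Ebf1-KO 9.23 ± 1.97, Pax5-KO 12.3 ± 2.16), fell in both knockouts (adjusted p = 6.87e-07 in Ebf1-KO and 0.000207 in Pax5-KO), the Pax5-KO call being lost with the 4 other scalings and the Ebf1-KO call with DESeq2. At 70.5 kb an EBF1-bound peak (WT 30.2 ± 5.51, Ebf1-KO 22.5 ± 2.69, Pax5-KO 17.8 ± 5.45) was lower in Pax5-KO (adjusted p = 0.0113), which the 4 other scalings did not call, and which was lost without WT library 3 (0.0834) or Pax5-KO library 2 or 3 (0.0637 and 0.0791). In Ebf1-KO its value of −0.40 ± 0.26 (adjusted p = 0.194) became a called rise with TMM, edgeR and DESeq2.

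Ccr9 had 1 peak that gained accessibility in Ebf1-KO. The printed peak at −12.6 kb gave 32.7, 14.5 and 24.1 in the WT libraries, 42.8, 36.6 and 46.4 in the Ebf1-KO ones and 28.6, 19.6 and 21.7 in the Pax5-KO ones. All Ebf1-KO libraries were above all others, and Pax5-KO overlapped with WT. Ebf1-KO was 1.77-fold above WT (log2 fold change 0.86 ± 0.27, adjusted p = 0.0045, 0.0538 without WT library 2). In Pax5-KO the value was 0.03 ± 0.27 (adjusted p = 0.942), and the 4 other scalings called it higher there too. Ebf1-KO exceeded Pax5-KO (0.83 ± 0.27, adjusted p = 0.0164), a call lost with quantile normalization, without Ebf1-KO library 1 or 3 (0.0534 and 0.0898) and without Pax5-KO library 2 or 3 (0.111 and 0.0507). The EBF1-bound peak at −4.0 kb (WT 18.2 ± 8.15, Ebf1-KO 7.39 ± 1.91, Pax5-KO 8.93 ± 1.22) fell in both (adjusted p = 0.00034 and 0.00619), and in neither with the other scalings. Without WT library 1 the Pax5-KO call was lost too (adjusted p = 0.119).

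Ccr2 had 3 PAX5-bound peaks within its transcript. The peak in intron 1, at 1.3 kb, gave 26.1, 11.7 and 20.2 in the WT libraries, 12.8, 19.1 and 22.7 in the Ebf1-KO ones and 10.9, 6.63 and 6.08 in the Pax5-KO ones. Ebf1-KO overlapped with WT (log2 fold change −0.05 ± 0.28, adjusted p = 0.898), and Pax5-KO was below both (−1.17 ± 0.28 against WT, adjusted p = 0.000239, and 1.12 ± 0.28 for Ebf1-KO over Pax5-KO, adjusted p = 0.00136). The 4 other scalings called Ebf1-KO higher than WT and did not call Pax5-KO against WT, and all called the difference between the knockouts. Of 2 peaks in the 3′ UTR, that at 5.2 kb (WT 12.4 ± 4.94, Ebf1-KO 1.36 ± 1.18, Pax5-KO 1.26 ± 0.179) fell in both knockouts under all 5 scalings (adjusted p = 5.63e-09 and 2.68e-08). That at 6.4 kb (WT 18.1 ± 3.99, Ebf1-KO 7.66 ± 1.80, Pax5-KO 4.69 ± 2.10) fell in both (adjusted p = 0.00047 and 1.47e-07), in Ebf1-KO only with the authors' scaling.

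At Cxcr5, the PAX5-bound peak at −39.1 kb gave 22.9, 14.0 and 18.4 in the WT libraries, 5.06, 2.42 and 2.88 in the Ebf1-KO ones and 1.76, 2.65 and 1.30 in the Pax5-KO ones. It fell in both knockouts under all 5 scalings (log2 fold change −2.14 ± 0.32 and −2.74 ± 0.32, adjusted p = 1.39e-08 and 6.86e-12), whereas Cxcr5 RNA rose in both. The peaks at −6.8 kb (WT 6.18 ± 2.19, Ebf1-KO 3.67 ± 1.75, Pax5-KO 3.49 ± 0.0404), at the promoter at −0.1 kb (WT 8.85 ± 0.488, Ebf1-KO 6.0 ± 2.64, Pax5-KO 5.48 ± 0.800) and in intron 1 at 1.9 kb (WT 5.36 ± 1.29, Ebf1-KO 4.49 ± 1.37, Pax5-KO 4.39 ± 1.23) were not called against WT, except that quantile normalization called that in intron 1 higher in Ebf1-KO. Leaving out 1 library also gave calls, at −6.8 kb in Ebf1-KO without WT library 2 (adjusted p = 0.0261) or Ebf1-KO library 3 (0.0424) and in Pax5-KO without WT library 2 (0.0279), and at −0.1 kb in Ebf1-KO without Ebf1-KO library 3 (0.032). The Ccr7 peak at 18.6 kb, bound by EBF1 (WT 9.75 ± 4.05, Ebf1-KO 9.43 ± 3.25, Pax5-KO 5.23 ± 1.11), was lower in Pax5-KO (adjusted p = 0.0312), which was lost with the other scalings, without WT library 1 (0.252) and without Pax5-KO library 2 (0.149). In Ebf1-KO it was not called (adjusted p = 0.936), but the other scalings called it higher. Ebf1-KO exceeded Pax5-KO there without Ebf1-KO library 1 (adjusted p = 0.0262), with TMM (0.0493), with edgeR (0.0235) and with only the knockouts in the fit (0.0443).

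By the factor bound, the 3 receptor peaks shared by EBF1 and PAX5 were all lower in both knockouts, with medians of −2.19 in Ebf1-KO and −2.86 in Pax5-KO, beside −1.70 and −1.28 over all 1529 shared peaks. Of 10 bound by EBF1 only, 4 were lower in Ebf1-KO, and 5 lower and 1 higher in Pax5-KO, with medians of −0.60 (Ebf1-KO) and −0.75 (Pax5-KO) beside −0.64 and −0.55 over all such peaks. Of 10 bound by PAX5 only, 6 were lower and 1 higher in Ebf1-KO, and 7 lower in Pax5-KO, with medians of −1.12 (Ebf1-KO) and −1.58 (Pax5-KO) beside −0.84 and −1.03 over all such peaks. Over all peaks of every class 51.1% were lower in Ebf1-KO and 51.5% in Pax5-KO. Peaks of 1 gene share a locus and are not replicates. In position, 17 of the 23 were intergenic, and 14 lay over 10 kb from the start site, as did 60.5% of all peaks.

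Sequence was searched over the 249 bases around the centre of each of 14372 peaks, on both strands. CANNTG occurred in 20 of the 23 receptor peaks and 78.1% of all, TGTGGT in 11 and 29.4%, and GCNTGAC in 1 and 13.7%. CCCNNGGG occurred in 4 of the 10 bound by EBF1 only and in 56.6% of all such peaks. It was in none of the 10 bound by PAX5 only (8.11% of all such peaks) or the 3 bound by both (41.7%). Over all peaks the share was 38%. Median GC content was 47.0% in the receptor peaks and 50.2% in all. A match of such short letters describes the sequence and does not mark a binding site.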

How the data were processed

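Per the submitters' processing notes, the authors used TopHat, HOMER, edgeR and DESeq2 for RNA and Bowtie2 and HOMER for ATAC on mm10, with versions not given in the files or labels at hand. Per the labels' protocols, RNA was amplified with a NuGEN Ovation Ultralow system and read for 76 cycles from 1 end. The deposited RNA signal is reads in exons per 10 M mapped reads, and the deposited ATAC signal is tags per peak per 10 M tags. The peak score is the authors' own value and served in 1 alternative, a filter at its median. The authors' deposited comparison tables hold log2 fold changes and p-values, from which only log2 fold changes are printed, and 36 per-sample columns of these 4 tables were not used.

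Whole reads were recovered from the RNA values (100% of values whole within 0.1 read), and edgeR on them called 7379, 6401 and 5184 genes for Ebf1-KO over WT, Pax5-KO over WT and Ebf1-KO over Pax5-KO, where the main test called 7095, 5976 and 3962. The main test was limma 3.58.1 (R 4.3.3) with an intensity trend on log2(value + 1), 1 mean per genotype over the 9 libraries of an assay, and Benjamini-Hochberg adjustment over all features, called at an adjusted p under 0.05; every adjusted p is limma's unless another tool is named. edgeR's low-count filter kept 12839 of 24072 genes, and at least 10 reads over 9 libraries kept 14365 of 14377 peaks. Alternatives were pseudocounts, filters, TMM, quantile normalization, edgeR 4.0.16, DESeq2 1.42.0, a replicate block, the groups compared alone and leaving out each library. RNA libraries of the same number deviated together (correlation 0.116 to 0.439 over 9 pairs across genotypes, the highest and lowest of the other pairs being 0.0300 and −0.366), so the numbers pair them. For the 9 receptors the blocked value stands where it changes a call. Gene lists, neighbours and shares of all genes come from the fit without the block, which ignores this pairing. The code was tested on simulated counts.

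The receptors and gene lists were chosen with earlier results of these data known. Named were all 9 receptors and their peaks, and from each list up to 3 called genes per comparison with a group mean of at least 5, by size of change, beside the 2 most alike genes per receptor and the neighbours on chromosome 9. Cxcl12 was named outside that rule, after its values were seen. Of the genes named by the rule, 1 is counted in its lists but not reported here. Printed peaks are those with the highest mean accessibility in any genotype among their gene's peaks, and a Ccr2 peak that overlaps an exon was left out.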

Additional observations from a re-analysis of the deposited data

How the results depend on the processing

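Values here are log2 fold changes less the median of all features. Of 513 alternative values for the 27 receptor results of RNA, 480 kept direction and side of the threshold, 16 lost and 12 gained a call with the direction kept, and 5 changed sign; for the 69 peak results these were 1154, 74, 31 and 59 of 1318. Sign changes included, 88 peak values lost and 36 gained a call. The cause was not tested. Cxcr6 RNA in Pax5-KO over WT became −0.016 with pseudocount 5 and −0.10 with quantile normalization, and ranged from −0.31 to 0.39 without single libraries.

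Signs changed at peaks close to the median. In Ebf1-KO over WT the Cxcr4 peak at −83.4 kb became 0.046 with pseudocount 0.5, 0.14 with TMM, 0.0058 with a mean of at least 5, 0.17 with edgeR and 0.17 with DESeq2. In Pax5-KO over WT the S1pr1 peak at 70.5 kb became 0.036 with pseudocount 0.5, 0.11 with TMM, 0.063 with quantile normalization, 0.13 with a mean of at least 5, 0.091 with edgeR and 0.10 with DESeq2. With pseudocount 5 or peak scores at or above the median, the Cxcr4 peaks became 0.093 and 0.11 at −103.6 kb and 0.10 and 0.14 at −94.2 kb. The Cxcr4 peak at −122.2 kb became −0.10 with TMM and −0.15 with quantile normalization, the Ccr7 peak −0.027 with pseudocount 5, and the Ccr9 peak at −4.0 kb 0.0097 with a mean of at least 5 and 0.0094 with the higher scores. In Ebf1-KO over Pax5-KO the Ccr2 peak at 5.2 kb became 0.016 with pseudocount 5, 0.035 with quantile normalization, 0.14 with edgeR, 0.15 with DESeq2 and 0.0052 with the higher scores. Quantile normalization gave −0.12 for S1pr1 at 70.5 kb, 0.14 for Cxcr4 at −9.2 kb (0.0040 with the higher scores) and −0.051 for Cxcr4 at 1.3 kb, and Cxcr5 at −0.1 kb became −0.081 with a mean of at least 5.

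Without single libraries the signs of these peaks also changed. In Ebf1-KO over WT the ranges were −0.20 to 0.091 for Cxcr4 at −83.4 kb, −0.10 to 0.42 for Cxcr5 at −6.8 kb and −0.038 to 0.43 at −0.1 kb. In Pax5-KO over WT they were −0.19 to 0.11 for S1pr1 at 70.5 kb, −0.26 to 0.18 for Cxcr4 at −103.6 kb, −0.26 to 0.31 at −94.2 kb and −0.60 to 0.21 at −61.1 kb, −0.14 to 0.21 for Ccr7, −0.26 to 0.10 for Ccr9 at −4.0 kb and −0.044 to 0.22 for Cxcr5 at −6.8 kb. In Ebf1-KO over Pax5-KO they were −0.37 to 0.46 for Ccr2 at 5.2 kb, −0.23 to 0.081 for Cxcr4 at −9.2 kb, and −0.21 to 0.28, −0.25 to 0.29 and −0.15 to 0.20 for Cxcr5 at −0.1, −6.8 and 1.9 kb.

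The count of peaks called in Ebf1-KO over WT, 7817, became 4832 with a mean of at least 5 and 4775 with the higher scores, both of which test fewer peaks, and the count of receptor peaks became 7 with the latter. In Pax5-KO over WT, 7708 peaks became 5021 with TMM, 3915 with DESeq2 and 4427 with the higher scores, and 16 receptor peaks became 9 with TMM, 9 with quantile normalization, 9 with edgeR, 9 with DESeq2 and 6 with the higher scores. Between the knockouts 3117 peaks became 1926 with the higher scores. Without single libraries the receptor peaks called between the knockouts ranged from 1 to 5, with 2 without Ebf1-KO library 3, 1 without Pax5-KO library 2 and 2 without Pax5-KO library 3.

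With the replicate number as a block, RNA calls were 8783, 8073 and 5622 in place of 7095, 5976 and 3962, and apart from S1pr1 and Ccr7, given above, no receptor call changed. ATAC libraries of 1 number did not deviate together, so the numbers do not pair them, and the block gave 7818, 7696 and 3136 calls. Depth limits Cxcr3 in WT, at 0 reads, and the Cxcr4 peaks at −122.2 and −119.3 kb, which held the fewest tags per 10 M in WT.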
